A study of Mus musculus with 11 samples.

Results

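The genes of the G-protein-gated inwardly rectifying potassium channels (GIRK channels) are Kcnj3, Kcnj5, Kcnj6 and Kcnj9, and these 4 genes, taken by family membership out of 22367 protein-coding genes of the mouse annotation, are described here by their open chromatin. A window was set for each gene as its body with 20 kb added on each side, and the windows held 57 of the 131942 peak intervals that were scored in the data. GIRK channels open when a receptor coupled to an inhibitory G protein releases the βγ subunits, and the outflow of potassium that follows makes the neuron less excitable. In midbrain dopaminergic (DA) neurons they carry inhibition by dopamine autoreceptors and by GABA-B receptors, and in serotonergic (5-HT) neurons inhibition by serotonin autoreceptors. Kcnj6 encodes GIRK2, the subunit best known from DA neurons, Kcnj3 encodes GIRK1, which needs a partner to reach the cell surface, Kcnj9 encodes the neuronal subunit GIRK3, and Kcnj5 encodes GIRK4, known above all from the heart.

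The study compared DA neurons with 5-HT neurons of mouse embryos at embryonic day 14.5 (E14.5), and asked which chromatin is open in each. For the DA group, GFP-positive cells were sorted from the ventral mesencephalon of embryos whose GFP was driven by the promoter of tyrosine hydroxylase (TH-GFP), and 3 ATAC-seq libraries were used. For the 5-HT group, YFP-positive cells were sorted from the anterior hindbrain of embryos that carried a Cre under Mash1 control and a YFP reporter in the ROSA locus, and 2 ATAC-seq libraries were used. Males of both lines had been mated to wild-type Swiss females, embryos were pooled for each library, and no treatment is named. ATAC-seq inserts a transposase into accessible DNA, and a peak marks an interval where insertions pile up. The libraries differed in yield: 52861, 93055 and 94351 peaks in DA replicates 1, 2 and 3, against 38772 and 22879 peaks in 5-HT replicates 1 and 2. An interval is called DA-only when each of the 3 DA libraries had a peak there and no 5-HT library did, 5-HT-only in the opposite case, common when all 5 libraries had a peak, and mixed otherwise. Since the 5-HT libraries held fewer peaks, the absence of a peak in them cannot be told apart from lower yield. Interval classes, in the windows and over all intervals, were therefore also counted with each library limited to its 22879 highest-scoring peaks. Promoters of the gene lists below that lie outside the windows were classed with all peaks only.

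Promoters of marker genes (1 kb upstream to 100 bp downstream of a transcription start site, TSS) were read first as a check of the labels. Of all protein-coding promoters, 59.7%, 63.6% and 61.9% had a peak in DA replicates 1, 2 and 3, against 58.0% and 49.5% in 5-HT replicates 1 and 2. All 10 DA markers had a promoter peak in each DA library, and 6 of 10 had one in both 5-HT libraries. Th, the rate-limiting enzyme of dopamine synthesis, was DA-only with scores of 9.91, 10.6 and 8.45, as was the DA transcription factor Lmx1a. Of the 6 5-HT markers, 4, 5 and 4 had a promoter peak in DA replicates 1, 2 and 3, against 5 and 2 in 5-HT replicates 1 and 2. Tph2, the rate-limiting enzyme of neuronal serotonin synthesis, had a common promoter, with scores of 9.91, 7.59 and 11.1 across the DA libraries and 7.09 and 3.59 across the 5-HT libraries. Fev, a transcription factor that defines 5-HT neurons, had a peak in 5-HT replicate 1 alone, with a score of 3.88, and the promoter of the serotonin transporter Slc6a4 was DA-only. Gata3 was common, at percentiles of 73.6, 51.5 and 61.7 among the peaks of the DA libraries and 65.1 and 95.5 among those of the 5-HT libraries. Gata2 was open in DA replicate 2 and 5-HT replicate 1, and Lmx1b lacked a peak in 5-HT replicate 2 alone. None of the 6 was 5-HT-only. With a missing peak set to 0, the mean percentile was higher in the DA libraries for Tph2, Slc6a4 and Lmx1b. It was higher in the 5-HT libraries for Fev, Gata2 and Gata3. Lmx1b served in the study as a marker of DA progenitors. The promoters of this list go in both directions and give no support for the 5-HT label. The study itself reported Tph2 protein and mRNA to be enriched in YFP-positive over YFP-negative cells sorted from this line. It also reported that the YFP-positive cells highly expressed genes of DA and GABAergic neurons. For the GFP-positive cells it proposed a slight contamination by GABAergic neurons. Of 4 GABAergic markers, 4 had a promoter peak in each DA library and 3 in each 5-HT library. The promoter of the glutamate transporter Slc17a6 had scores of 9.97, 12.9 and 12.8 across the DA libraries, 3.65 in 5-HT replicate 1 and no peak in 5-HT replicate 2, while Slc17a7 had no promoter peak. Of 3 noradrenergic markers, Dbh had no promoter peak, and of 5 glial and vessel markers, between 2 and 4 had one in a DA library and 3 and 1 in the 5-HT libraries. The part that other cell types in the sorted fractions had in the results below was not tested.

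In the 4 windows together, 11 of 57 intervals were DA-only (19.3%, 95% Wilson interval 11.1% to 31.3%, counting error only), beside 13.4% of all intervals. The common class held 10 of 57, beside 12.8%, and the 5-HT-only class held 1, beside 0.389%. With 1 library left out the DA-only count moved, to 18 intervals without DA replicate 1 and 17 without 5-HT replicate 1. The common count moved to 16 without 5-HT replicate 2. Shares over all intervals were not counted with a library left out, so these counts cannot be set against the shares above. The Wilson interval given above treats neighbouring intervals as independent draws and holds no variation between libraries. It is therefore no test of the difference from 13.4%. In such bulk libraries a smaller share of cells with open chromatin and lower accessibility in each cell cannot be told apart. Among the intervals with a peak in all 3 DA libraries, 11 of 27 lacked a peak in both 5-HT libraries, beside 38.6% of all such intervals. Of the 35 mixed intervals, 14 had a peak in 1 library and 12 in exactly 2 DA libraries. The shares of these kinds over all intervals were not counted, so no comparison is made. Limited to equal numbers of peaks, 23 of the 57 intervals retained a peak in any library, and of these 3 were DA-only, 6 common and 4 5-HT-only, beside 6.94%, 27% and 5.79% of all intervals with a peak. The 3 DA-only intervals left were 2 in Kcnj6 and 1 in the flank of Kcnj5, and the 4 5-HT-only ones were all common with all peaks.

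The places of the classes differed among the genes. No promoter was DA-only, and the 11 DA-only intervals comprised 7 in introns, of 32 intervals within the gene bodies outside the promoters, and 4 of 21 in the flanks. For flanks, the share over all genes was not counted. In all protein-coding gene bodies outside promoters, 15.7% of intervals were DA-only and 5.39% common, and 2 of the 32 were common, both in Kcnj9. Kcnj6 contributed 5 DA-only intervals, Kcnj3 3, Kcnj5 2 and Kcnj9 1, whereas 7 of the 10 common intervals were in the Kcnj9 window. Kcnj6 and Kcnj3 are long genes, of 248 and 162 kb, and Kcnj9 is short, with 8.23 kb. The Kcnj9 window held 37.3 intervals per 100 kb, a higher density than in 99.9% of protein-coding genes, and that of Kcnj3 held 4.95, higher than in 42.8% of them. Of the 18 intervals in the Kcnj9 window, 15 were in the flanks, and the 10 downstream ones all overlapped the neighbouring gene Igsf8. The density of this window is thus mostly that of sequence outside Kcnj9.

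**Figure D1:**
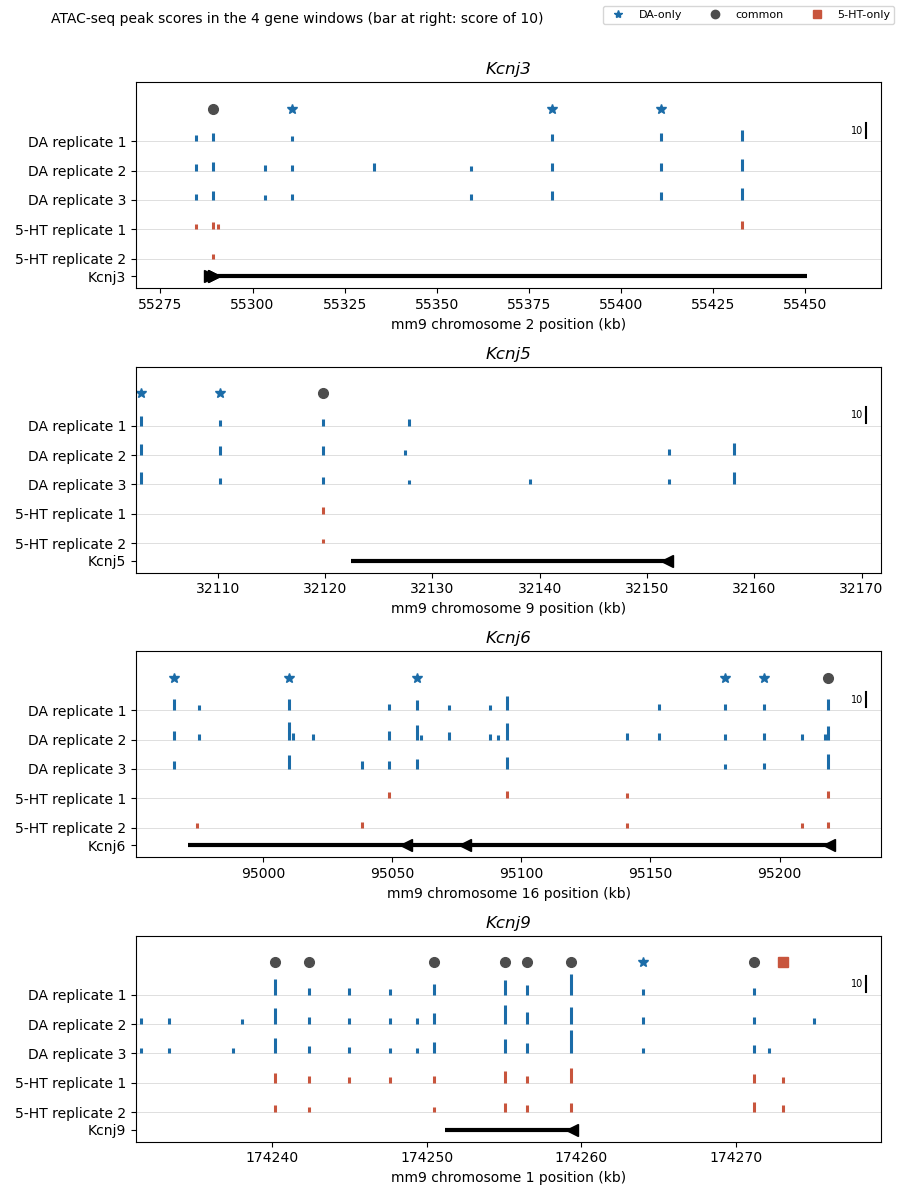
Peak scores along the 4 gene windows in mm9, with position in kb on the horizontal axis and 1 track for each of the 3 DA libraries (blue) and 2 5-HT libraries (red). The height of a bar is the score, a black line is the gene with an arrowhead at each TSS, and symbols at the top mark the 11 DA-only, 10 common and 1 5-HT-only intervals, of which 7 common ones lie in the Kcnj9 window.

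Counted by library, the windows held 32, 49 and 39 peaks in DA replicates 1, 2 and 3 and 19 and 15 peaks in 5-HT replicates 1 and 2. Divided by the yield, this was 6.05, 5.27 and 4.13 peaks per 10000 peaks in the DA libraries and 4.90 and 6.56 in the 5-HT libraries. The groups overlapped, and the difference was within the spread of the replicates (5.15 ± 0.965, SD, n = 3, against a mean of 5.73, n = 2, two-sided exact permutation test, p = 0.5, where 0.1 is the smallest p that 10 divisions of 5 libraries allow). Without 5-HT replicate 2 the direction turned, with 0.25 more peaks per 10000 in the DA libraries. The windows differed in direction. In the Kcnj9 window, 1.89, 1.61 and 1.59 peaks per 10000 were found in the DA libraries and 2.58 and 3.50 in the 5-HT libraries. The latter were higher also at equal numbers of peaks, with 7 and 8 peaks against 5 in each DA library. At equal numbers the additional 5-HT peaks all lay in neighbouring genes. They were at the promoters of Igsf8 and Kcnj10 and, in 5-HT replicate 2, in an intron of Kcnj10. The promoter, exon and intron intervals of Kcnj9 itself kept a peak in every library. In the Kcnj5 window the DA libraries were higher, at 0.757, 0.645 and 0.742 against 0.258 and 0.437, although at equal numbers this came down to 1, 2 and 2 peaks against 1 and 1. In the Kcnj6 window there were 12, 19 and 9 peaks in the DA libraries and 4 and 5 in the 5-HT libraries, but the groups overlapped after division by yield, at 2.27, 2.04 and 0.954 per 10000 against 1.03 and 2.19, and at equal numbers, with 5, 4 and 4 peaks against 2 and 5. In the Kcnj3 window they overlapped as well, at 1.14, 0.967 and 0.848 per 10000 against 1.03 and 0.437, and the difference in means, 0.249, turned to -0.0728 at equal numbers.

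**Figure D2:**
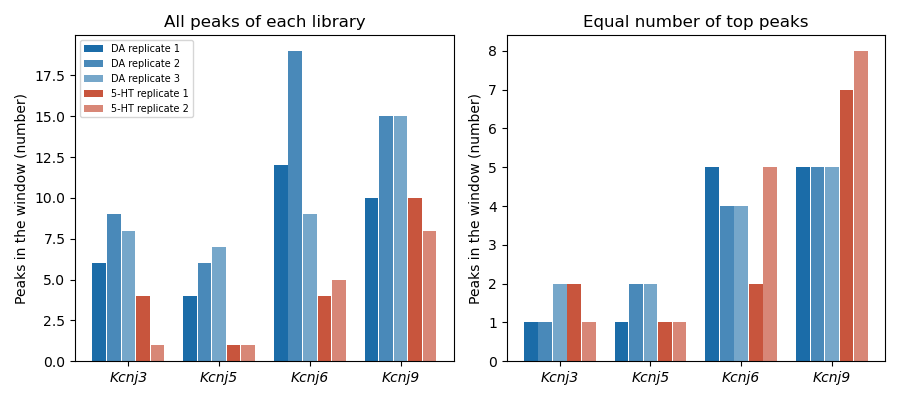
Number of peaks in each gene window in the 3 DA (blue) and 2 5-HT (red) libraries, with all peaks on the left and the 22879 highest-scoring peaks of each library on the right. The bars of the 5-HT libraries for Kcnj9 reach 7 and 8 on the right, against 5 in each DA library, and the additional 5-HT peaks lie in the neighbouring genes Igsf8 and Kcnj10.

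Kcnj6 lies on the minus strand (chr16:94970873-95219303, ENSMUSG00000043301.8), and its annotated transcripts start at 3 positions. The promoter interval at the outermost TSS (chr16:95218198-95219576) was common, with scores of 6.94, 8.89 and 9.83 across the DA libraries and 4.82 and 3.40 in the 5-HT libraries. Because the scale of the score may differ between libraries, each score was also expressed as its percentile among the peaks of its own library, where 100 is the highest. These percentiles were 73.2, 86.6 and 93.0 against 58.7 and 37.0, so that every DA library was above both 5-HT libraries (84.3 ± 10.1, SD, n = 3, against a mean of 47.8, n = 2, two-sided exact permutation test, p = 0.1, the smallest possible). Percentiles rise when a library holds more weak peaks. The rank counted from the highest peak does not, but it cannot exceed the number of peaks in the library, so that ranks of libraries with different yields are given as descriptions. The promoter peak ranked 14162, 12499 and 6605 in the DA libraries and 16027 and 14411 in the 5-HT libraries. At equal numbers of peaks the difference in percentile was 18.1 in place of 36.4 (exact permutation test, p = 0.2). The internal start positions, 95055234 and 95078297, had no peak in their promoters in any library.

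Within Kcnj6, 19 of 21 intervals were in introns and 4 of these were DA-only. DA-only intervals were ordered by the lowest of their 3 DA scores, and the first of the gene (chr16:95009896-95010241), 209 kb downstream of the outermost TSS, had scores of 6.93, 11.0 and 8.69 across the DA libraries and no peak in the 5-HT libraries. It ranked 14259, 6987 and 9345, and a second intronic one (chr16:95059591-95060060), with scores of 6.46, 9.01 and 6.43, ranked 16702, 12128 and 19650. Both were among the 22879 highest peaks in every DA library, which holds for no other DA-only interval of the 4 genes but 1 in the flank of Kcnj5. The third in order was in the downstream flank (chr16:94965358-94965726) with scores of 7.05, 5.58 and 5.07. An intronic interval outside the rule for naming, singled out after its values were seen (chr16:95094028-95094703), had scores of 9.01, 10.7 and 7.91 across the DA libraries, 4.62 in 5-HT replicate 1 and no peak in 5-HT replicate 2. In all, 2 annotated non-coding genes fall in the window, the microRNA AC165248.1 and the lincRNA Gm17496, and a peak overlapped the promoter of AC165248.1 in DA replicate 2 alone, with a score of 3.06.

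Kcnj3, on the plus strand (chr2:55288381-55450556, ENSMUSG00000026824.5), had a common promoter interval of 2818 bp (chr2:55287800-55290617) that covers its 3 annotated TSSs and also a promoter of the antisense lincRNA Gm17595. The scores were 5.15, 5.6 and 5.81 in the DA libraries and 4.45 and 3.18 in the 5-HT libraries. The percentiles, 50.5, 66.2 and 74.3 against 49.1 and 23.9, did not overlap (63.7 ± 12.1, SD, n = 3, against a mean of 36.5, n = 2, two-sided exact permutation test, p = 0.2). Without 5-HT replicate 2 the difference of 27.2 points fell to 14.5. The peak ranked 26166, 31479 and 24220 in the DA libraries and 19724 and 17418 in the 5-HT libraries, so that at equal numbers of peaks the promoter was 5-HT-only, the opposite direction; 5-HT replicate 2 retains all its peaks there. Its 3 DA-only intervals were all intronic, at 122 kb from the TSS (chr2:55410424-55411257, scores of 5.51, 5.02 and 4.97), at 92.8 kb (chr2:55380967-55381457, scores of 4.44, 4.60 and 6.01) and at 22.3 kb (chr2:55310385-55310911, scores of 3.45, 3.58 and 3.65). None of them had a peak in every DA library at equal numbers. The highest-scoring interval outside the promoter (chr2:55432544-55433112) was open in the 3 DA libraries, at scores of 6.93, 7.10 and 7.43, and in 5-HT replicate 1, at 5.52. Upstream, the processed transcript Gm14033 carried an exonic interval that was open in every DA library and in 5-HT replicate 1.

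Kcnj9, on the minus strand (chr1:174251164-174259394, ENSMUSG00000038026.7), had the highest promoter scores of the family. Its promoter interval (chr1:174258671-174259958), which includes exon 1 of 4, had scores of 13.3, 10.9 and 14.9 across the DA libraries and 9.46 and 6.08 in the 5-HT libraries. The percentiles were 96.9, 92.1 and 98.3 against 96.7 and 89.9, the groups overlapped, and the difference was within their spread (95.8 ± 3.23, SD, n = 3, against a mean of 93.3, n = 2, two-sided exact permutation test, p = 0.5). Its direction was not stable: the DA minus 5-HT difference of 2.48 points became -7.54 at equal numbers of peaks and -0.924 without 5-HT replicate 2. The ranks were 1653, 7316 and 1590 against 1280 and 2311. The other intervals of the gene body, in exon 3 (chr1:174255970-174257009) and in an intron (chr1:174254685-174255410), were common too, the intronic one with scores of 9.26, 11.9 and 9.26 against 7.72 and 5.82, and both remained common at equal numbers of peaks. The single DA-only interval (chr1:174263797-174264226) lay upstream, with scores of 3.47, 4.47 and 3.27.

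The Kcnj9 window also reaches into Igsf8, a gene of a cell surface immunoglobulin protein on the downstream side, and into Kcnj10, which encodes the mainly glial inward rectifier Kir4.1, on the upstream side. The only 5-HT-only interval of the windows (chr1:174272808-174273221) was in an intron of Kcnj10, with scores of 4.00 and 4.50, and at equal numbers of peaks it lost this class, since it ranked 25304 in 5-HT replicate 1. The Kcnj10 promoter (chr1:174270761-174271589) was common, with scores of 4.50, 4.83 and 5.15 across the DA libraries and 5.42 and 6.32 in the 5-HT libraries. Its percentiles were 37.2, 56.5 and 68.1 against 69.9 and 91.2, so that both 5-HT libraries were above the DA libraries. It was outside the 22879 highest peaks in every DA library. Of 10 common intervals in the 4 windows, 3 overlapped Igsf8 and 1 the Kcnj10 promoter, and the counts for Kcnj9 therefore include elements next to other genes.

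Kcnj5, on the minus strand (chr9:32122368-32151822, ENSMUSG00000032034.5), had the promoter with peaks in the fewest libraries. The promoter interval (chr9:32151661-32152415) had a peak in DA replicates 2 and 3 alone, with scores of 3.68 and 3.41, or percentiles of 30.8 and 30.7, and it was not tested since 3 libraries had no peak. None of its 3 intronic intervals was DA-only. Its 2 DA-only intervals were in the downstream flank, the stronger of them (chr9:32102540-32103205) with scores of 5.84, 7.09 and 7.83 and ranks of 20608, 20423 and 12380, and the weaker (chr9:32110037-32110370) with scores of 3.88, 5.70 and 3.88. The highest score outside the promoter was in an interval 6.33 kb upstream of the TSS (chr9:32158070-32158226), at 7.99 and 8.0 in DA replicates 2 and 3, with no peak in the other libraries.

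Over the 4 promoters, 3 were common, beside 48.3% of protein-coding promoters, and none was DA-only, beside 2.04%, while 34.9% of protein-coding promoters had no peak. Every DA percentile exceeded both 5-HT percentiles at 2 of the 3 common promoters, Kcnj3 and Kcnj6, beside 57.1% of common promoters, and at equal numbers of peaks, where Kcnj3 became 5-HT-only and 2 promoters remained common, at Kcnj6 but not Kcnj9, beside 16.9%. In order of mean DA percentile the promoters were Kcnj9, Kcnj6 and Kcnj3; Kcnj9 and Kcnj6 overlapped between single DA libraries, as did Kcnj6 and Kcnj3, and within each DA library Kcnj9 was above Kcnj6 and Kcnj6 above Kcnj3. The same order was found within each 5-HT library.

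**Figure D3:**
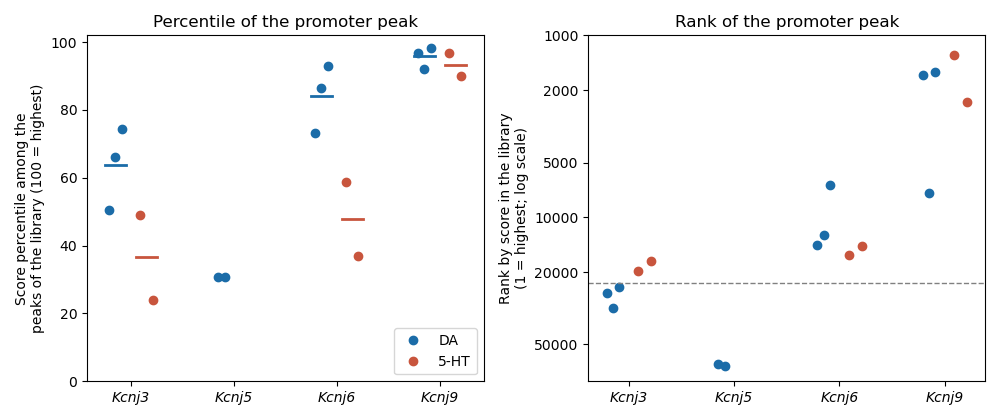
Promoter peaks of the 4 genes in the 3 DA (blue) and 2 5-HT (red) libraries, as score percentile with group means as lines (left) and as rank from the highest peak on a log axis (right), where the dashed line marks rank 22879. The DA libraries are above the 5-HT libraries for Kcnj6 and Kcnj3 on the left; libraries differ in their number of peaks, which bounds the ranks on the right, and Kcnj5 had a peak in 2 DA libraries.

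The genes whose promoter percentiles over the 5 libraries were nearest to those of each member were found by Euclidean distance. For Kcnj6 they were Bdp1, 4632411B12Rik and Snx2, at distances of 5.18, 5.33 and 5.50. For Kcnj3 they were Scmh1, Cyr61 and Ghsr, at 4.11, 6.82 and 7.26, and for Kcnj9 they were Uba1, Tpd52l2 and Opa1, at 2.17, 2.37 and 2.49. For Kcnj5, which had peaks in 2 libraries, they were Slc25a43, Crabp1 and Tm4sf1, at 1.38, 1.53 and 2.50. Members were left out of the search.

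Genes that act with GIRK channels were read against the 48.3% of protein-coding promoters that were common. Of 17 receptors that couple to inhibitory G proteins, 9 had a common promoter and none was DA-only or 5-HT-only. The D2 dopamine receptor gene Drd2 was common with low scores, 3.80, 3.59 and 3.43 in the DA libraries and 3.37 and 3.41 in the 5-HT libraries. Htr1a, the serotonin autoreceptor, had promoter scores of 4.57, 6.26 and 5.24 across the DA libraries and 3.03 in 5-HT replicate 2, and no peak in 5-HT replicate 1. Of the GABA-B receptor genes, Gabbr1 was common, with scores of 6.10, 6.89 and 7.01 against 5.71 and 4.33, and Gabbr2 lacked a peak in 5-HT replicate 2 alone. Of 13 G protein subunit genes, 11 were common, among them Gnao1, the most abundant inhibitory α subunit of neurons, with scores of 5.31, 7.40 and 7.16 against 4.85 and 3.41. Of 9 regulators and trafficking partners, 5 were common, including Rgs4, which speeds the end of the G protein signal, with 7.91, 7.54 and 8.12 against 5.34 and 4.06.

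Of 11 genes of other inward rectifiers, 4 had a common promoter, beside 48.3% of protein-coding genes, 4 had no promoter peak, beside 34.9%, and 1, Kcnj16, was DA-only, beside 2.04%, with scores of 4.07, 5.12 and 4.69. Kcnj15, a neighbour of Kcnj6 on chromosome 16, and Kcnj1, a neighbour of Kcnj5 on chromosome 9, had no promoter peak in any library. Counted by library, 7, 7 and 5 of the 11 promoters were open in DA replicates 1, 2 and 3, against 5 and 4 in the 5-HT libraries, beside the shares of all protein-coding promoters given above for each library.

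The promoters also differed in sequence. Entries for all 4 genes, 5 in number, were found among the RefSeq promoters (GRCm38.p6, 250 bases before to 50 after the start), and each matched mm9 exactly once. The promoters below are shown because they span from the strongest to the weakest peak of the family, with CG dinucleotides in capitals, and all 300 bases of each were inside the promoter interval of the gene. The other Kcnj6 entry, at an internal start (chr16:95078248-95078547), lay outside every interval. Kcnj6 had 30 CG dinucleotides and an observed to expected ratio of 1.04, higher than 96.1% of all RefSeq promoters, whose median was 0.384. Kcnj9 had the strongest peaks and 5 CG dinucleotides, with a ratio of 0.249, and Kcnj3 and Kcnj5 had 10 each, with ratios of 0.408 and 0.399. A CpG-rich promoter was therefore not shared by the members with a common promoter.
Kcnj6 promoter, minus strand, chr16:95219254-95219553 in mm9: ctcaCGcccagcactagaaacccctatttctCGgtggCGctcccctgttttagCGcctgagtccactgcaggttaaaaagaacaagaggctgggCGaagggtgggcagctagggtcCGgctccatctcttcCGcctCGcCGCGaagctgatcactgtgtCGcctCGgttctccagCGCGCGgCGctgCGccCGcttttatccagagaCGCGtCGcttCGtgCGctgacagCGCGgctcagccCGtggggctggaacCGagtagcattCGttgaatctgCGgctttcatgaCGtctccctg
Kcnj9 promoter, minus strand, chr1:174259404-174259703 in mm9: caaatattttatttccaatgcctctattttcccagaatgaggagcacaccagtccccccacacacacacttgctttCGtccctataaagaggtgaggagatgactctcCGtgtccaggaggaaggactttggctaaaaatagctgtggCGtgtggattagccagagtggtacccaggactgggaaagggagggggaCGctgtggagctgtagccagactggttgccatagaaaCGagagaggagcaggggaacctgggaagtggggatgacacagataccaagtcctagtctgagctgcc
Kcnj3 promoter, plus strand, chr2:55288131-55288430 in mm9: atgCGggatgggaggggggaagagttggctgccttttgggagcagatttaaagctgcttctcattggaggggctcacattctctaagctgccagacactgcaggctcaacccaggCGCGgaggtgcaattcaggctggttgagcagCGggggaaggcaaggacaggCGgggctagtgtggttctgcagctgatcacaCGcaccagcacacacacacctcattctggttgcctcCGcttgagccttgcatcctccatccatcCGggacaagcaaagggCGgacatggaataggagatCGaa
Kcnj5 promoter, minus strand, chr9:32151880-32152179 in mm9: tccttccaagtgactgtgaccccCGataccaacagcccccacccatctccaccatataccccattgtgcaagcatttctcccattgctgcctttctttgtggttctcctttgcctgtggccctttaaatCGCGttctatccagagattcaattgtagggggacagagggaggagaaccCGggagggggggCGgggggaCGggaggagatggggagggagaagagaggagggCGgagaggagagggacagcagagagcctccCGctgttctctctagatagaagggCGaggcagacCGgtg

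Short words known from transcription factors were searched on both strands in the same promoters and in the central 200 bases of the 9 DA-only intervals named above. The words were AAGGTCA, a nuclear receptor word, TAATTA, a homeodomain word, GTAAACA, a forkhead word, ACAAAG and ACAATG, SOX words, CAGCTG and CAGATG, E-boxes, and GATTA, the core of Pitx and Otx factors. The nuclear receptor, TAATTA and forkhead words were in none of these 9 sequences, and the central 200 bases of 4.15%, 6.38% and 3.83% of all intervals and of 6.16%, 8.79% and 5.44% of DA-only intervals hold them. GATTA was in 3 of 9, beside 21.4% of all and 27.6% of DA-only intervals, and CAGCTG in 2, beside 18.9% and 23.9%. The word ACAAAG was in 1, beside 17.5% and 17.3%, ACAATG was in 1, beside 10.5% and 9.55%, and CAGATG was in 1, beside 19.5% and 22.9%. In the promoters, Kcnj3 had 1 CAGCTG, Kcnj5 1 ACAAAG and 1 ACAATG, Kcnj9 1 GATTA and the outermost Kcnj6 promoter none, while 16.3%, 18.7%, 12.6% and 22.0% of all RefSeq promoters hold these words in the same order. A match describes the letters alone. The first DA-only interval of Kcnj6, Kcnj5 and Kcnj3 in the order of the lowest DA score, and the second one of Kcnj6 in that order, are shown on the plus strand, with the words in capitals. The first Kcnj6 sequence held none of the 8 words, and that of Kcnj3 held GATTA 3 times, once as its reverse complement TAATC. GC content was 58.5% and 48% in the Kcnj6 sequences, 53% in that of Kcnj5 and 35% in that of Kcnj3, beside a median of 48% over all DA-only intervals and 60.5% over common ones.
Kcnj6 intron, chr16:95009968-95010167 in mm9: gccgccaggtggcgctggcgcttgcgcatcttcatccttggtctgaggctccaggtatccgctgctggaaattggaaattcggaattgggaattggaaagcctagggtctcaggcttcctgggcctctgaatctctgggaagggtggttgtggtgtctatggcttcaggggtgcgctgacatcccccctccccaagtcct
Kcnj6 intron, chr16:95059725-95059924 in mm9: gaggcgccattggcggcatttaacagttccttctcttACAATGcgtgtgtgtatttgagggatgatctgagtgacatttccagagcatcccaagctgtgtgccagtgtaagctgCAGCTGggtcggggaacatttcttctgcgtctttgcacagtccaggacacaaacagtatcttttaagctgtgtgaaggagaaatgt
Kcnj5 downstream flank, chr9:32102772-32102971 in mm9: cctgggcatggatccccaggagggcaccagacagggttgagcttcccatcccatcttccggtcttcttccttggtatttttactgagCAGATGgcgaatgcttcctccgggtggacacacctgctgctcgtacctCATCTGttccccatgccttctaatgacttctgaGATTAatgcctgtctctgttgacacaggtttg
Kcnj3 intron, chr2:55410740-55410939 in mm9: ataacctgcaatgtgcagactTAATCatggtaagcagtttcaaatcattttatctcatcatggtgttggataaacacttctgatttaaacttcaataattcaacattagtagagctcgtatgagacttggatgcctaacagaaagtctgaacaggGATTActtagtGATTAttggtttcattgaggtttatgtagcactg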

How the data were processed

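ATAC-seq had been made from 3 DA and 2 5-HT libraries, and RNA-seq was not analysed here. Per the study's methods and the submitters' processing notes, reads were trimmed with Trimmomatic, aligned to mm9 with Bowtie2, freed of duplicates with Picard and used to call peaks with MACS2 in each library, and versions were not given in the sources used here. The deposited value is a score for every interval of 1 shared list in each library, where 0 marks no peak. The scale of the score and the read depth are not known, and the precision is limited by the number of libraries. A misspelled chromosome name was corrected in 1 line.

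Intervals were placed with the GENCODE annotation of mm9 in the order promoter, exon, intron and flank. Score percentiles and ranks were computed within a library. Differences between libraries were tested by two-sided exact permutation tests over 10 divisions, without adjustment for the 3 promoters tested. The replicates are separate libraries of pooled embryos. Replicate numbers were not taken as pairs. For any other gene the promoter interval with a peak in the most libraries was taken.

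Named were the members, other genes in their windows, all promoter intervals, up to 3 DA-only intervals for each member with the highest lowest DA score, the highest-scoring interval outside the promoter, 5-HT-only intervals, the 3 nearest genes by promoter percentiles, and of the pathway lists the genes with a DA-only or 5-HT-only promoter and 9 fixed genes (Drd2, Htr1a, Gabbr1, Gabbr2, Gnao1, Rgs4, Kcnj10, Kcnj15, Kcnj1). Members and lists were chosen with earlier results of these data known. Alternatives were flanks of 10 and 50 kb, equal numbers of peaks, merging of intervals under 100 bp apart, a wider promoter (2 kb upstream to 500 bp downstream), a replicate block, leaving out each library and, chosen after seeing the data, a peak in at least 2 DA libraries. Calculations used Python 3.11.15, NumPy 2.4.6, SciPy 1.17.1 and pandas 2.3.3, and functions were tested on simulated data.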

Additional observations from a re-analysis of the deposited data

How the results depend on the processing

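The count of DA-only intervals, 11, was 9 with flanks of 10 kb, 15 with 50 kb and 12 after merging, and it moved to 3 at equal numbers of peaks and, with an alternative chosen after seeing the data, to 23 when a peak in at least 2 DA libraries sufficed. Leaving out 1 library gave 11 to 18, with 18 without DA replicate 1 and 17 without 5-HT replicate 1. The count of common intervals, 10, moved to 17 with 50 kb and to 6 at equal numbers of peaks, and ranged from 10 to 16 when 1 library was left out, with 16 without 5-HT replicate 2. Fewer peaks or fewer libraries enter these counts by construction. Shares over all intervals were not counted with a library left out or for the rule of at least 2 DA libraries. The difference in peaks per 10000, -0.577, was between -1.51 and -0.356 with other flanks, equal numbers or merging, and between -1.41 and 0.25 with 1 library left out, reversed without 5-HT replicate 2. Over the pairs of replicates 1 and 2, the replicate block gave -0.0687 for this difference and 21.8, 32.1 and 1.21 percentile points for the promoters of Kcnj3, Kcnj6 and Kcnj9, with the direction of the main values; the numbers are not known to pair the libraries. The promoter differences of Kcnj3 and Kcnj6 ranged from 14.5 to 39.8 and from 25.6 to 47.2 points with 1 library left out. That of Kcnj9 reversed to -7.54 at equal numbers and to -0.924 without 5-HT replicate 2, where the range was -0.924 to 5.87, and the cause was not tested. For Kcnj3 the direction turned at equal numbers, where both 5-HT libraries retained the promoter peak and no DA library did, so that it was 5-HT-only and no difference in percentile could be computed. No test could pass 0.05 with 5 libraries, so that the p-values say nothing about stability.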
